A study of Homo sapiens with 6 samples.

Results

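The locus of VMP1 and MIR21 was measured by 4 probe sets, those whose annotation entry contains either symbol, out of 54613 probe sets other than controls. These are 2 of the 21357 genes named in the annotation. One entry, 1569003_at, lists VMP1 alone. The other 3, 220990_s_at, 224917_at and 231697_s_at, list both MIR21 and VMP1, so they cannot be assigned to 1 of the genes. SK-Hep1 is an established human cell line that was derived from a liver adenocarcinoma. It was plated 24 hours before lipid transfection and collected 16 hours after it. The 3 anti-miR-21 samples had received 20 nM of an oligonucleotide against miR-21, and the 3 mock samples went through transfection without it. The mock samples received no control oligonucleotide, and all 6 arrays come from 1 cell line. The labels name total RNA, whereas the harvest protocol cites an Argonaute immunoprecipitation procedure, and the fraction that was hybridised is not settled here.

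VMP1 encodes vacuole membrane protein 1, a multipass protein of the endoplasmic reticulum that moves lipids between the leaflets of the membrane and is needed to form autophagosomes. The hairpin of miR-21 lies at the far end of the VMP1 gene, on the same strand. Its primary transcript can arise from a promoter inside VMP1 or from VMP1 transcripts that run on past the usual polyadenylation site. The mature miR-21-5p is abundant in many tumours, and AP-1 and STAT3 are among the factors reported to drive its transcription. The arrays measured long polyadenylated transcripts of the locus and not the mature microRNA.

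The sequences below show which RNA the oligonucleotide is directed against, where it sits in its precursor, and how the upstream end of the gene reads. They are RefSeq sequences of GRCh38.p14, and the sequence of the oligonucleotide itself was not used here. In the mature RNAs, capitals mark the seed (bases 2 to 8). Among 2370 mature human microRNAs in the table, 2 carry this seed.
hsa-miR-21-5p: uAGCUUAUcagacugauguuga
hsa-miR-590-5p: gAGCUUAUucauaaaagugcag
The mature miR-21-5p lies at chr17:59841273-59841294 on the plus strand and miR-590-5p at chr7:74191213-74191234 on the plus strand. The MIR21 hairpin of 72 bases lies at chr17:59841266-59841337, inside the RefSeq span of VMP1, and capitals mark the mature strand at its bases 8 to 29.
MIR21 hairpin: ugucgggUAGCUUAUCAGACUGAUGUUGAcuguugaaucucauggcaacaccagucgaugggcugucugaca

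The promoter of VMP1, at chr17:59707404-59707703 on the plus strand, covers 250 bases before and 50 bases after the gene's RefSeq start. It is shown because it is the start shared by full-length VMP1 transcripts. Capitals mark matches to CCGGAAG, the letters of an ETS site, and to TGACG, the core of a cyclic AMP response element, on either strand.
VMP1 promoter: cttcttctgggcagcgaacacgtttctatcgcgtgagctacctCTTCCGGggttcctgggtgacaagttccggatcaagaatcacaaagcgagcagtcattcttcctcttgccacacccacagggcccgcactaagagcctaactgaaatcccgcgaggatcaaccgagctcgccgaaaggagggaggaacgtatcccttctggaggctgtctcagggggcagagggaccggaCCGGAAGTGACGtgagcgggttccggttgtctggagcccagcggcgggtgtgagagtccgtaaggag
The letters CCGGAAG occurred 2 times, against 10.7% of 27305 promoter windows of the same length that hold them at least once. TGACG occurred 1 time, directly after the second ETS match, and is found in 25% of windows. No match was present for the full element TGACGTCA (1.98% of windows), for the AP-1 letters TGAGTCA (4.92%) or for the STAT letters TTCNNNGAA (7.88%), each searched on both strands. These motifs were chosen with the sequence in view, and a match is a run of letters, not a bound site. The gene PTRH2, which runs the opposite way, has a promoter window that shares 277 of its 300 bases with this one. The promoter from which the miR-21 primary transcript can start inside VMP1 is not in the table and is not shown.

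The 6 arrays were alike in overall quality. The number of probe sets at a log2 value of 4 or more ran from 22277 to 22591 over the arrays. The difference between 3' and 5' control probe sets, a measure of RNA integrity, ran from 0.491 to 0.628 in mock and from 0.589 to 0.606 in anti-miR-21 for ACTB, and the ranges for GAPDH also overlapped (-0.278 to -0.258 and -0.285 to -0.263). On the first principal component, with 50.4% of the variance, anti-miR-21 replicates 2 and 3 lay at 20.11 and 19.63, the mock arrays at -19.95 to -7.25, and anti-miR-21 replicate 1 between them at 3.51. Of 9 hepatocyte markers measured, 6 had a mean below 4, among them ALB (2.85), TTR (2.26) and APOA1 (2.50), whereas SERPINA1 had 11.92. Of 8 endothelial markers, 6 were below 4. Of 6 mesenchymal markers, 5 were at 4 or above, among them VIM at 15.71, and COL1A2 was at 2.51. Most of the markers that define hepatocytes were thus at low values in this line.

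All 4 probe sets of the locus had higher values on every anti-miR-21 array than on any mock array, with log2 differences from 0.32 to 1.36. None of the 4 passed the test after adjustment over all probe sets (limma, adjusted p from 0.128 to 0.31), whereas 0.621% of all probe sets did. All 4 had an unadjusted p under 0.05 with higher values in anti-miR-21, as did 4.19% of all probe sets. Arrays that did not overlap, with anti-miR-21 higher, were found for 7.26% of all probe sets. Of all probe sets 74.2% had a positive difference, and 22408 of the 54613 had a mean of at least 4. The 4 lay at percentiles 68.2 to 97.2 by level, so these shares are over unlike levels. The 4 probe sets report on 1 locus and on the same 6 arrays, so they do not count as 4 separate observations. Values are relative amounts of RNA in the fraction hybridised, which is not settled. Changes in RNA per cell, in the cells that make it and in the share bound to Argonaute therefore cannot be told apart.

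1569003_at, the probe set that lists VMP1 alone, differed most. Its log2 values were 8.06, 8.33 and 8.80 on mock replicates 1 to 3 and 9.26, 9.95 and 10.07 on anti-miR-21 replicates 1 to 3. The highest mock array lay 0.46 below the lowest anti-miR-21 array. The group means were 8.40 ± 0.37 and 9.76 ± 0.44 (SD, n = 3), a 2.57-fold difference (log2 1.36 ± 0.27 SE, 95% interval 0.71 to 2.02, limma adjusted p = 0.128). By size of the increase it ranked 21 among 54613 probe sets, whereas by p it ranked 896. The call depended on the filter: the adjusted p was 0.0536 among the 22408 probe sets with a mean of at least 4, where 2.17% passed, and 0.0337 among those with a mean of at least 6, a filter under which it passed.

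224917_at, which lists both genes, had log2 values of 11.62, 11.87 and 12.03 in mock and of 12.28, 12.60 and 12.94 in anti-miR-21. Each anti-miR-21 array lay above each mock array, by at least 0.25. The means were 11.84 ± 0.20 and 12.61 ± 0.33 (SD, n = 3), a 1.70-fold difference (log2 0.77 ± 0.18 SE, 95% interval 0.32 to 1.21, limma adjusted p = 0.196). It ranked 169 by size of the increase.

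231697_s_at, which also lists both genes, was the dimmest of the 4 and the most variable. It had 5.67, 6.79 and 6.34 in mock and 7.29, 6.98 and 7.63 in anti-miR-21. Mock replicate 2 came within 0.19 of the lowest anti-miR-21 array. The means were 6.27 ± 0.56 and 7.30 ± 0.33 (SD, n = 3), a 2.04-fold difference (log2 1.03 ± 0.30 SE, 95% interval 0.29 to 1.77, limma adjusted p = 0.31). The suffix _s_at marks a probe set whose probes match more than 1 transcript.

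220990_s_at, whose annotation cites a VMP1 reference mRNA and lists both genes, was the brightest and differed least. It had 12.74, 12.81 and 12.87 in mock and 12.94, 13.20 and 13.22 in anti-miR-21. The groups stood apart by 0.08, about the distance between neighbouring mock arrays. The means were 12.81 ± 0.07 and 13.12 ± 0.15 (SD, n = 3), a 1.25-fold difference (log2 0.32 ± 0.08 SE, 95% interval 0.12 to 0.52, limma adjusted p = 0.235).

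**Figure D1:**
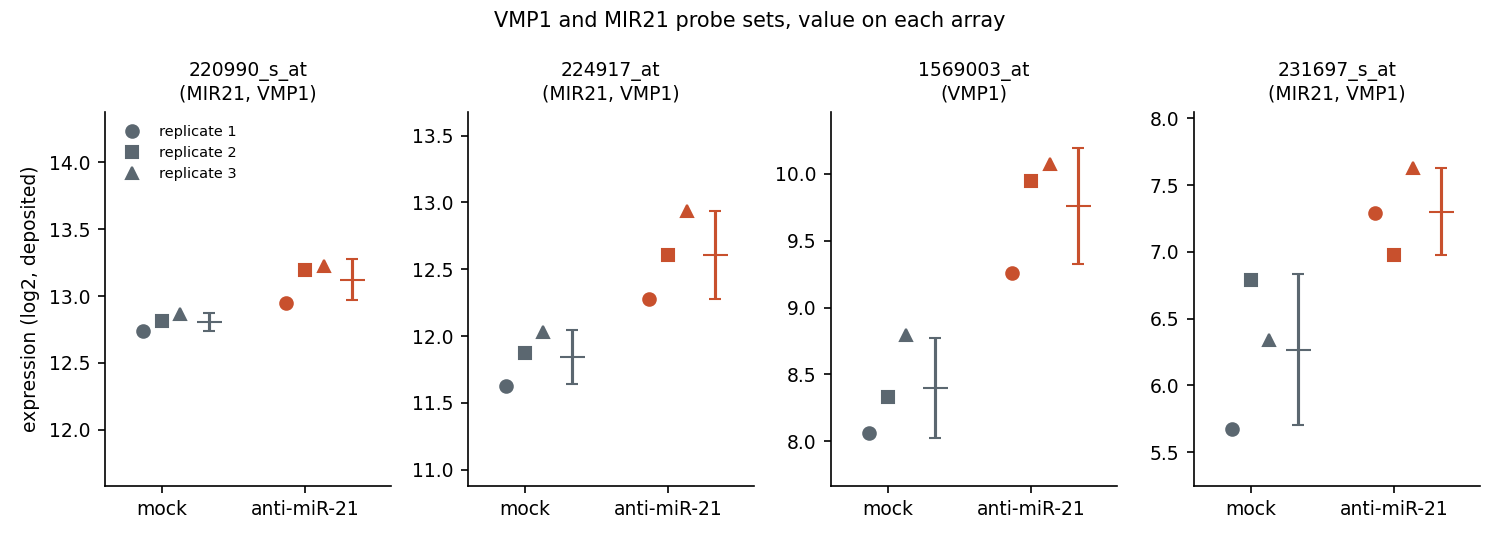
Deposited log2 expression (y axis, each panel spanning the same number of log2 units) of the 4 probe sets on each array, grey for mock and orange for anti-miR-21, with marker shapes for replicate numbers and the mean ± SD of 3 arrays beside the points. In every panel the 3 anti-miR-21 arrays lie above the 3 mock arrays, by a gap of 0.08 for 220990_s_at and of 0.46 for 1569003_at.

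A two-sided exact permutation test over the 6 arrays gave p = 0.1 for each of the 4 probe sets, which is the smallest value that 3 arrays against 3 allow. The spread between replicates was wide for 3 of the 4. The pooled SD within groups was 0.406 for 1569003_at, 0.274 for 224917_at and 0.46 for 231697_s_at, against a median of 0.09 over 22408 probe sets with a mean of at least 4. These values lay at percentiles 98.9, 95.8 and 99.3 of that set. For 220990_s_at the pooled SD was 0.118, at percentile 67.4.

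The anti-miR-21 arrays did not move equally. Relative to the mock mean, 1569003_at was 1.82-fold higher on anti-miR-21 replicate 1, 2.93-fold on replicate 2 and 3.20-fold on replicate 3. The corresponding folds for 224917_at were 1.35, 1.70 and 2.14, and those for 220990_s_at were 1.10, 1.31 and 1.34. On these 3 probe sets replicate 1, the array between the groups on the first principal component, was the lowest of the 3. For 231697_s_at the folds were 2.03, 1.63 and 2.56, and replicate 2 was the lowest. Without anti-miR-21 replicate 1 the log2 difference of 1569003_at was 1.61 (limma adjusted p = 0.0841) and that of 220990_s_at 0.41 (adjusted p = 0.0596). With any 1 array left out, none of the 4 passed, and all 4 differences stayed positive.

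The next comparison asked whether the probe sets of the locus changed by different amounts. The difference between 2 probe sets was taken on each array, and all 47975 pairs of probe sets that share a gene were tested together. None of the 6 pairs within the locus passed, whereas 0.302% of all pairs did. At an unadjusted p under 0.05 there were 3 of the 6 pairs, against 9.73% of all pairs. Arrays did not overlap between groups for those 3 pairs, as for 14.4% of all pairs in either direction.

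The widest of these contrasts was between 1569003_at, whose entry lists VMP1 alone, and 220990_s_at. The log2 difference 1569003_at minus 220990_s_at was -4.68, -4.48 and -4.07 in mock and -3.68, -3.25 and -3.15 in anti-miR-21. It was thus higher on every anti-miR-21 array, by 1.05 ± 0.21 (SE, 95% interval 0.51 to 1.58, limma adjusted p = 0.197). Against 224917_at, 1569003_at differed by 0.60 ± 0.13 (SE, 95% interval 0.27 to 0.93, limma adjusted p = 0.225). The difference 220990_s_at minus 224917_at was lower on every anti-miR-21 array than on any mock array, by -0.45 ± 0.12 (SE, 95% interval -0.76 to -0.13, limma adjusted p = 0.331). The 3 pairs that involve 231697_s_at overlapped between groups, and their 95% intervals, the widest from -0.58 to 1.25, included 0. The files do not give the position of the probes along the transcripts, so these contrasts are not placed on the gene. The brightest probe set differed least, and the part of signal level in these contrasts was not tested.

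**Figure D2:**
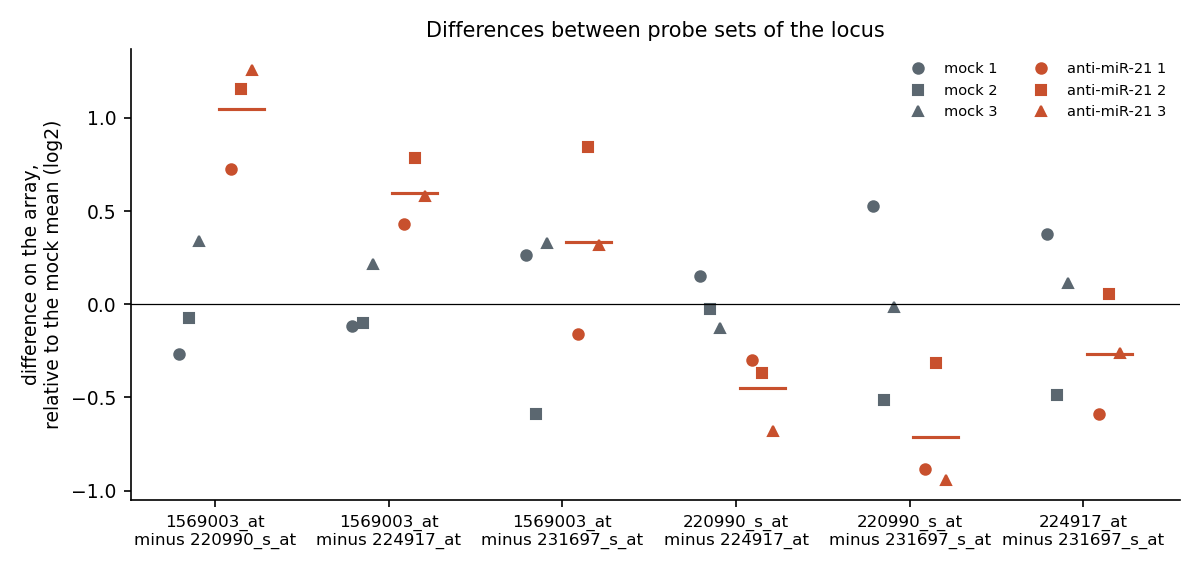
Difference between 2 probe sets of the locus on each array (y axis, log2, after subtracting the mock mean of that pair) for the 6 pairs, grey for mock and orange for anti-miR-21, with orange bars at the anti-miR-21 mean. The groups are separate for 3 pairs, with changes of 1.05, 0.60 and -0.45, and overlap for the 3 pairs that involve 231697_s_at.

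Genes on either side of VMP1 on chromosome 17 were compared to see how far the difference extended. Of 13 neighbouring genes listed, 11 had a probe set of their own and none passed (limma), against 0.865% of all 19775 genes taken by their brightest single-gene probe set. At an unadjusted p under 0.05 there were 3, against 12.7% of all genes: TUBD1, PPM1D with a log2 difference of -0.14, and CA4 with 0.11 at a mean below 4. The median log2 difference was -0.037, that of all genes 0.017, and 4 of the 11 were positive against 65% of all genes. All genes include many at low values: 10848 of 19775 had a mean of at least 4, against 9 of the 11. Shares among genes of like level were not computed, here or for the lists below. CLTC, the clathrin heavy chain gene upstream of PTRH2, had 14.13, 14.13 and 14.22 in mock and 14.14, 14.10 and 14.14 in anti-miR-21. The 2 groups overlapped, with a log2 difference of -0.03 ± 0.04 (SE, limma adjusted p = 0.866). TUBD1, the delta-tubulin gene downstream of MIR21, had 9.06, 9.12 and 9.00 in mock and 8.97, 8.78 and 8.75 in anti-miR-21. It was lower on all 3 anti-miR-21 arrays, with a difference of -0.23 ± 0.07 (SE, limma adjusted p = 0.322). Of all probe sets, 12.6% had arrays that did not overlap in either direction. RPS6KB1, which encodes the ribosomal protein S6 kinase and follows TUBD1, had a difference of -0.11 ± 0.05 (SE, limma adjusted p = 0.596), with overlapping arrays. With all probe sets of a gene averaged, the differences were 0.00 for CLTC, -0.19 for TUBD1, -0.04 for RPS6KB1, -0.09 for PPM1D and 0.06 for CA4. PTRH2, which shares the promoter region of VMP1, was not listed in the annotation used here, so the other direction of that region has no value.

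Among the other proteins with the VTT domain that VMP1 carries, none of 3 passed (0.865% of all genes did) and 1 of the 3 was positive (65% of all genes). TMEM41B, the scramblase that acts with VMP1 in autophagy, had 10.89, 11.11 and 11.00 in mock and 10.79, 10.67 and 10.86 in anti-miR-21. Its arrays did not overlap, as for 12.6% of all probe sets in either direction. The log2 difference was -0.23 ± 0.07 (SE, limma adjusted p = 0.354). Its second probe set had a difference of 0.03. TMEM41A had -0.21 (limma adjusted p = 0.442) and -0.04 on its 2 probe sets, and TMEM64 had 0.02 (limma adjusted p = 0.903) on its brightest. At an unadjusted p under 0.05 there were 2 of the 3 genes, TMEM41B and TMEM41A, against 12.7% of all genes. With probe sets averaged, the differences were -0.10 for TMEM41B, -0.12 for TMEM41A and -0.05 for TMEM64.

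The wider autophagy machinery was measured in full, with 40 of 40 genes at a mean of at least 4. None passed (0.865% of all genes did). At an unadjusted p under 0.05 there were 7, or 17.5%, against 12.7% of all genes, and 35% were positive, against 65% of all genes. The median level of the list was 9.71 and that of all genes 5.79, so these shares are over unlike levels. The median log2 difference was -0.017. The 3 with the smallest p were ATG2A and ATG2B, lipid transfer proteins that supply the growing autophagosome membrane, and ATG4D, a protease that processes LC3 family proteins. Their log2 differences were -0.24, -0.25 and 0.11 (limma adjusted p = 0.307, 0.343 and 0.31). The sign differed among them. The largest difference in the list was that of GABARAPL1, an LC3 family protein, at 0.36 ± 0.17 (SE, limma adjusted p = 0.667), with arrays that overlapped between groups. With its 4 probe sets averaged, ATG2B had -0.13, and GABARAPL1 over its 2 had 0.24. In that averaged fit WIPI1 had the smallest adjusted p of the list, with -0.16 over 2 probe sets (limma adjusted p = 0.0655). Its brightest probe set had -0.10.

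Of 9 genes for the calcium, lipid and contact site functions of VMP1 at the endoplasmic reticulum, none passed and none had an unadjusted p under 0.05, against 0.865% and 12.7% of all genes. The median log2 difference was -0.023. CDIPT, the phosphatidylinositol synthase, had -0.06, TJP1, a tight junction scaffold, -0.06, and ATP2A2, a calcium pump of the endoplasmic reticulum that VMP1 regulates, 0.05 (limma adjusted p = 0.866 for each). BECN1, the Beclin 1 gene, belongs to this list and to the autophagy list and had -0.03. With all probe sets of a gene averaged, 1 gene passed, VAPB, a tether at membrane contact sites, which fell by 0.34 on the log2 scale (limma adjusted p = 0.0486), whereas its brightest probe set had -0.05. In that fit 1.19% of all genes passed, ATP2A2 had -0.09 and BECN1 0.00.

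Of 20 transcription factors reported to act on MIR21, 19 were measured and none passed (0.865% of all genes did). At an unadjusted p under 0.05 there were 7, against 12.7% of all genes, and 15 were positive, against 65% of all genes. Of the 19, 14 had a mean of at least 4, against 10848 of all 19775 genes. FOS, FOSB, ESR1, GFI1 and SPI1, with means below 4, were all among the positive. The median log2 difference was 0.089, that of all genes 0.017. JUN, a subunit of AP-1, had a log2 difference of 0.22 ± 0.05 (SE, limma adjusted p = 0.148). STAT3, the factor that relays interleukin-6 signals, had 0.28 ± 0.07 (SE, limma adjusted p = 0.183). FOSL2, another AP-1 subunit, had 10.92, 10.65 and 10.79 in mock and 11.04, 11.45 and 11.46 in anti-miR-21, with a difference of 0.53 ± 0.13 (SE, limma adjusted p = 0.212). For these 3 the arrays did not overlap between groups, as for 7.26% of all probe sets with anti-miR-21 higher. With all probe sets of a gene averaged, the differences were 0.38 for JUN, 0.23 for STAT3 and 0.30 for FOSL2 (limma adjusted p = 0.109, 0.112 and 0.355). The rest of the 7, by brightest probe set, were JUND, JUNB and NFIB, which were higher (0.27, 0.27 and 0.16), and FOXO3, which was lower (-0.09). The list was not split by the sense in which each factor is reported to act on MIR21.

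**Figure D3:**
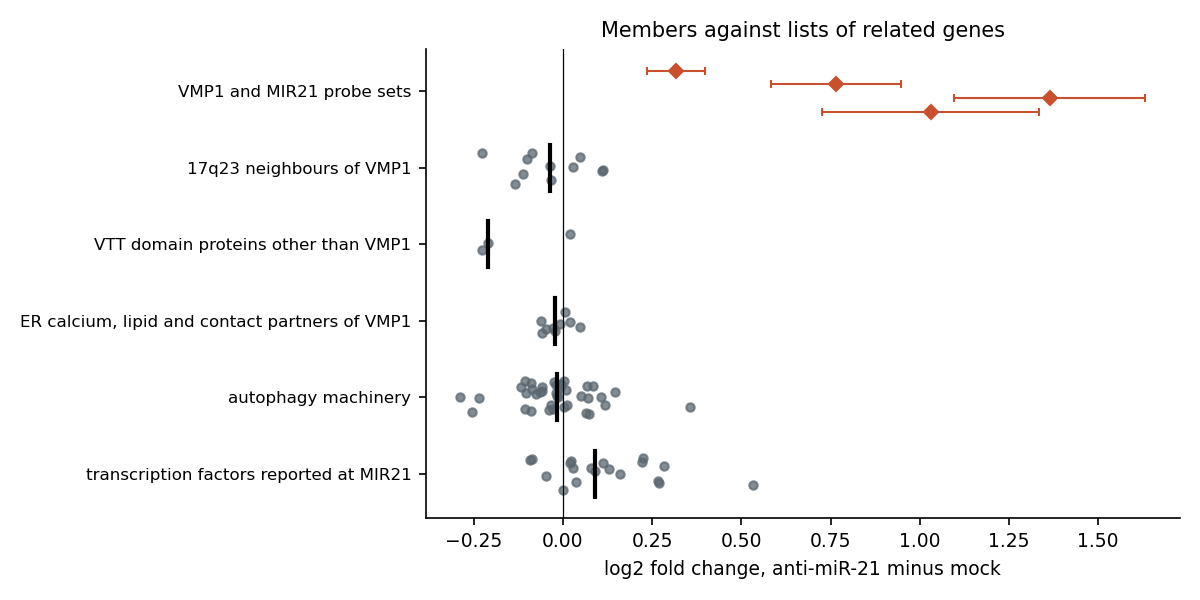
Log2 fold change, anti-miR-21 minus mock (x axis), of the 4 locus probe sets (orange diamonds, bars are ± 1 SE) and of the genes of each list by their brightest single-gene probe set (grey points, vertical bars at the list median). The locus probe sets lie between 0.32 and 1.36, and the list medians lie between -0.209 and 0.089.

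Patterns over the 6 arrays were compared between each locus probe set and 10847 genes with a mean of at least 4. Because the arrays form 2 groups, any gene that differs between groups in the same sense scores high, so the coefficients are descriptions. JUND, an AP-1 subunit, was among the 5 most alike for 3 of the 4, with a Pearson r of 0.9885 with 220990_s_at, 0.9956 with 224917_at and 0.9889 with 1569003_at. Its own log2 difference was 0.27 (limma adjusted p = 0.239). The pattern most like 220990_s_at was that of MYC, a growth-promoting transcription factor (r = 0.9942). That most like 224917_at was HNRNPA1, an RNA-binding protein (r = 0.9968), read by a probe set of a type that can cross-hybridise. That most like 1569003_at was PRR3 (r = 0.9917), with a log2 difference of 0.41 (limma adjusted p = 0.075).

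The lists for 220990_s_at were completed by EID3, R3HDM2 and GADD45B, those for 224917_at by ZNF239, SMARCD1 and ISM1, and those for 1569003_at by HNRNPA1, EID3 and RCOR3. ISM1 had a mean of 3.66 in mock and 4.67 in anti-miR-21. It thus met the filter at a mean of 4 only through its anti-miR-21 values. The fourth probe set, 231697_s_at, had other nearest genes, TOR1AIP1, MTRR, MALL, TUB and SLC25A36, with r from 0.9895 to 0.9933. Its pattern differs from that of the other 3 in the order of replicates, as the values above show. Between 41 and 65 genes reached an r of 0.95 with any 1 of the 4.

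Other microRNA loci give a further comparison. Of 301 probe sets that list a microRNA gene or its host, 5 rose and none fell, a share of 1.66% that rose. Of all probe sets 0.289% rose and 0.331% fell. The median level was 7 for the 301 and 3.09 for all probe sets, so these shares are over unlike levels. None of the 3 such probe sets of MIR21 was among the 5. The 5 list MIR146A, the MIR17HG cluster, the MIR23A cluster, MIR22 and its host, and MIR6756 with MCAM, with log2 differences from 0.36 to 2.03. The probe set of the MIR17HG cluster had 8.17, 8.40 and 8.43 in mock and 9.30, 9.54 and 9.75 in anti-miR-21. Its difference of 1.19 ± 0.13 (SE, limma adjusted p = 0.0246) is close in size to those of 1569003_at and 231697_s_at, and its SE is less than that of either, 0.27 and 0.30.

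**Figure D4:**
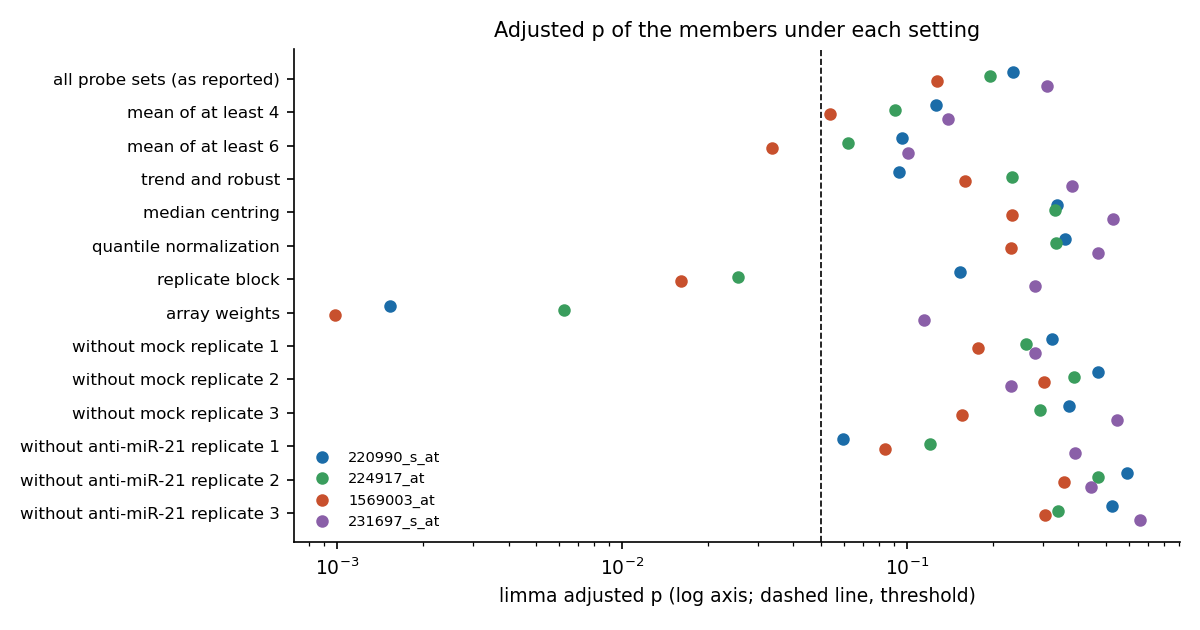
Adjusted p (x axis, log scale, dashed line at the threshold of 0.05) of the 4 locus probe sets with all probe sets tested and under each of 13 other settings (rows). The points fall left of the line with the filter at a mean of 6 (1 probe set), the replicate block (2) and array weights (3), and in no setting that leaves out an array.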

How the data were processed

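RNA from 6 samples was measured on 6 single-colour arrays. The deposited table holds log2 values of 54675 probe sets. Per the submitters' processing notes the authors used GCRMA, and its version is not given in the sources used here. GCRMA corrects background by probe sequence, normalizes arrays together and summarises each probe set. The 62 controls were left out. Names came from the platform annotation, with Entrez identifiers checked against RefSeq of GRCh38.p14 (0 symbols changed). The 54613 probe sets were fitted without a filter with limma 3.58.1 under R 4.3.3 (lmFit then eBayes, no covariate, two-sided, Benjamini-Hochberg, threshold 0.05). Pairs of probe sets sharing a gene were fitted the same way. A gene in a list was read by the brightest probe set that lists it alone. Named genes were all locus probe sets, the nearest neighbours, VTT genes, the 3 of each other list with the smallest p, any called genes and the 5 most alike patterns. BECN1, GABARAPL1, WIPI1, CA4, PPM1D, VAPB, JUNB, NFIB, FOXO3, FOS, FOSB, ESR1, GFI1, SPI1 and the microRNA loci were named after their values were seen. The locus and lists were chosen with earlier results of these data known. The labels call the replicates biological without naming separate cultures, so p values rest on the spread among these arrays, which may be technical, and precision is limited by 3 arrays a group. The alternatives were filters at 4 and 6, trend and robust variance, centring, quantile normalization, the replicate block, array weights and 1 array left out. Fits were tested on simulated data with 100 changed features. Of changed probe sets, 88 were recovered at a log2 shift of 0.585 and 99 at 1, with 13 false calls. Of changed pairs, 50 were recovered at a shift of 0.5 and 86 at 1, with 7 false calls. These counts are over all changed features and do not show recovery at the spread of the locus (pooled SD from 0.118 to 0.46).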

Additional observations from a re-analysis of the deposited data

How the results depend on the processing

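All 4 differences of the locus stayed positive under the 13 alternatives. 1569003_at passed with the filter at a mean of 6 (log2 1.36, adjusted p = 0.0337), where fewer probe sets are tested, with the replicate block (1.36, adjusted p = 0.0161) and with array weights (1.66, adjusted p = 0.000981). 224917_at passed with the block (0.77, adjusted p = 0.0256) and with weights (0.87, adjusted p = 0.00626), and 220990_s_at with weights (0.39, adjusted p = 0.00153). 231697_s_at passed under none (adjusted p from 0.101 to 0.655), and its log2 difference, 1.03 as reported, was 0.52 with weights. The number of locus probe sets that passed was thus 1, 2 and 3 under these settings, and 0 with each array left out. Across probe sets, same-numbered arrays did not deviate together (correlations of -0.361, -0.266 and -0.002), so the numbers are not treated as pairs. At the locus, 220990_s_at, 224917_at and 1569003_at did rise from replicate 1 to replicate 3 in both groups, and 231697_s_at did not.

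Array weights by limma's default method did not converge. The gene-by-gene method gave mock replicate 2 a weight of 10.3 and anti-miR-21 replicate 1 a weight of 0.123, so its calls rest mainly on few arrays. It called 10298 probe sets higher and 5080 lower, 714 pairs, and 15 autophagy, 2 VTT, 3 endoplasmic reticulum, 6 neighbouring and 10 transcription factor genes. In it 1569003_at minus 220990_s_at (1.22, adjusted p = 0.0327) and 1569003_at minus 224917_at (0.74, adjusted p = 0.0465) passed, and 224917_at minus 231697_s_at turned from -0.27 to 0.14 (adjusted p = 0.854). With probe sets averaged, 1 endoplasmic reticulum gene passed (VAPB).

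Over all probe sets, 158 rose and 181 fell. The counts were 247 and 239 with the filter at 4, 307 and 321 with the filter at 6, 268 and 271 with trend and robust variance, 58 and 68 with median centring, 83 and 85 with quantile normalization, and 102 and 84 with the block. Leaving out 1 array gave 40 to 145 rising and 29 to 146 falling. The lowest counts came without anti-miR-21 replicate 2 (40 and 29) or 3 (40 and 44), and mock replicate 2 (45 and 45) or 3 (54 and 56). Of all pairs, 145 passed, 89 with trend and robust variance, 0 with the block, and 0 to 84 with 1 array left out. Centring moved the median log2 difference of all probe sets from 0.02 to -0.018.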
